A study of Homo sapiens with 9 samples.

Results

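The lysyl oxidase family consists of LOX and its relatives LOXL1, LOXL2, LOXL3 and LOXL4, and RNA of all 5 genes was looked for in A2780 cells, an established line of human ovarian carcinoma. A probe belonged to a member if the transcript accession given for it on the array was a RefSeq transcript of that gene, which gave 6 probes on 27 spots of every array. The 5 members are among 35010 genes and other features on the array, and 4 of them were among the 21833 that passed the filter on dim probes, which kept a probe when it stood well above background throughout 1 or more of the groups. The family was selected from measured values of these same arrays, so the levels and changes of its members are given as a description, without a test.

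Lysyl oxidases are copper-dependent amine oxidases that carry a cofactor made from their own lysine and tyrosine side chains. Outside the cell they oxidize lysine side chains of collagen and elastin, and the aldehydes formed there go on to join neighbouring chains in cross-links. LOX is made as a precursor whose propeptide is cut off by BMP1, LOXL2, LOXL3 and LOXL4 carry scavenger receptor domains, and LOX and LOXL2 are both known for their rise in hypoxia and for links to tumour cell invasion.

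The study compared 3 untreated cultures with 3 cultures given 8 nM and 3 given 80 nM of DIG-MSK for 24 h, all grown in RPMI medium with fetal bovine serum. DIG-MSK is demycarosyl-3D-β-D-digitoxosyl-mithramycin SK, an analogue of the antibiotic mithramycin A, and drugs of this kind bind C/G-rich DNA in the minor groove. Each culture was hybridized to a one-color array of its own, and the methods describe the 3 cultures of a group as independent biological replicates. No vehicle is named for the untreated cultures, and all 9 samples come from a single cell line. Levels below are log2 intensities relative to the 75th percentile of their array, which lay between 831.7 and 1170 intensity units, and levels of different probes are not set against each other. Levels within a group correlated between 0.988 and 0.996 over the gene probes that passed the filter. A first slide, scanned at 1 time, carried the untreated and 8 nM arrays, and a second slide, scanned at another time, carried those of 80 nM. Slide and dose therefore cannot be told apart at 80 nM, whereas 8 nM and untreated cells are compared within a slide. Of 10 epithelial and ovarian carcinoma markers, 6 were well above background on all 9 arrays, while CDH1, PAX8, WT1 and MUC16 did not pass the filter. All measurements are of bulk RNA, in which fewer cells with a transcript and less of it per cell cannot be told apart.

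The sequences upstream of the members are shown because the drug binds C/G-rich DNA and the members moved in different directions. They were taken from RefSeq on GRCh38.p14 and cover the 250 bases before the transcription start, in the sense direction of the gene. Capitals mark the GC box, the letters GGGCGG or, on the other strand, CCGCCC. No start is given here for LOXL2. The window of LOX is chr5:122078260-122078509 on the minus strand, that of LOXL3 is chr2:74553943-74554192 on the minus strand, and that of LOXL4 is chr10:98268195-98268444 on the minus strand.
LOX: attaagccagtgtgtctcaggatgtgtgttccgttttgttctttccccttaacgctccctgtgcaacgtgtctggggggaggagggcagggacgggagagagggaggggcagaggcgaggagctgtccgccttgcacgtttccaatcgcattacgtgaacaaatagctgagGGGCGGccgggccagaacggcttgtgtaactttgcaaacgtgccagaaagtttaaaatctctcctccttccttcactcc
LOXL3: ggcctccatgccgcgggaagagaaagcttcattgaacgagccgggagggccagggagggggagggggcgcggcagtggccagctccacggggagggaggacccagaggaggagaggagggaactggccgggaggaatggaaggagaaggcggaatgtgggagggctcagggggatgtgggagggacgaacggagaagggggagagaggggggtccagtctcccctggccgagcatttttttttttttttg
LOXL4: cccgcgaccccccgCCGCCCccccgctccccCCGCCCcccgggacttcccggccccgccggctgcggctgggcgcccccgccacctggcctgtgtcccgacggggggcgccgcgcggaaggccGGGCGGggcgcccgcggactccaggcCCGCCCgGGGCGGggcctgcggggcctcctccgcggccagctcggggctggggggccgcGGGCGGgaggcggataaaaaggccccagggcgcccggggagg
The LOX window held 1 GC box, which began 79 bases before the start, and the windows of 2 other RefSeq starts of LOX, with 61.2% and 66.4% G and C, held 0. The LOXL4 window held 6 that did not overlap, 3 in each direction, and 86.4% of its bases were G or C, a share that 99.8% of all windows did not exceed. LOXL3, at 64.4% G and C, held none in the window farthest upstream, and another RefSeq start of LOXL3 had a window with 2. LOXL1, with 66.8% G and C, held none either. Among windows of the same length before 27305 genes, 42.2% held at least 1 GC box, 2.23% held at least 6, and the median share of G and C was 57.6%. A match to these letters is a description of the sequence and no evidence of binding.

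**Figure D1:**
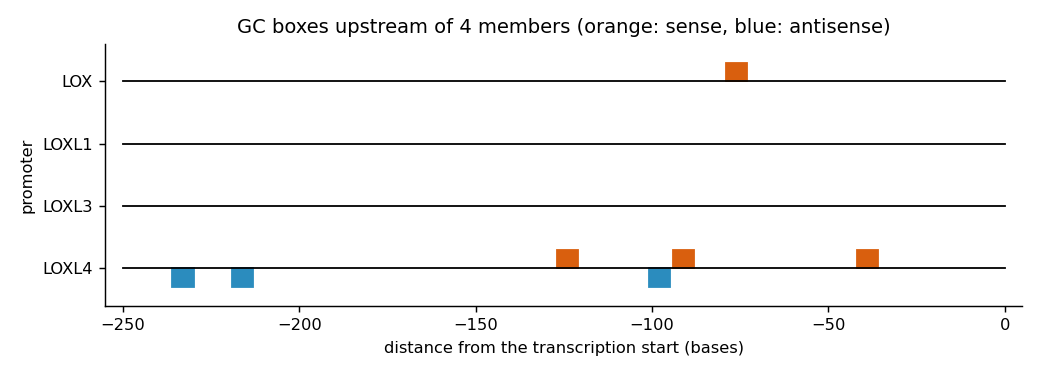
Positions of GC boxes in the 250 bases before the transcription start of LOX, LOXL1, LOXL3 and LOXL4. The x axis gives the distance from the start in bases, blocks above a line are sense matches and blocks below it antisense ones. LOX has 1 block, LOXL4 has 6, and LOXL1 and LOXL3 have none.

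LOX, the founding member, was measured by a probe for NM_002317 that occupied 10 spots. On untreated arrays its intensity was 107.1, 137.8 and 126.2 in replicates 1, 2 and 3, and its level averaged -2.99 ± 0.03 (SD, n = 3). At 8 nM the intensities were 105.7, 66.7 and 126.7, with a mean level of -3.43 ± 0.22 (SD, n = 3). All 3 of these levels were below all 3 untreated ones, although the raw intensities of both groups overlap, because levels are scaled to each array. The change was -0.44 ± 0.11 (SE) on the log2 scale, short of the 1.5-fold limit used for calls. At 80 nM the intensities dropped to 4.34, 3.61 and 4.31, and none of the 3 arrays was well above background. The highest of the 28 spots used at 80 nM read 9.46, and the lowest of 30 spots on untreated arrays read 90.6. Because the probe had no level of its own at 80 nM, its fall is a bound. On processed intensities, LOX was at least 7.6-fold lower than in untreated cells, and at least 5.6-fold lower than at 8 nM. Here the lowest spot well above background on each array stood in for the dim side. The bound holds for this background correction only.

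On 2 of the 80 nM arrays, 1 LOX spot each was marked as an outlier by the scanner software and left out, and these spots read 86.2 in replicate 1 and 81.6 in replicate 2. Both lie inside the range of single spots at 8 nM, from 57.7 to 142, and far above the other spots of their own arrays. With them kept, an alternative added after seeing the data, the fitted change at 80 nM was -4.56 instead of -4.85 ± 0.11 (SE) on the log2 scale. The size of the LOX change depended more on the background correction. It was -1.44 after normexp correction with an offset of 50, and -2.13 in the log2 table of the authors, so these estimates fall short of the bound above. In no alternative did LOX rise at 80 nM, and the settings spanned -5.13 to -1.44.

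**Figure D2:**
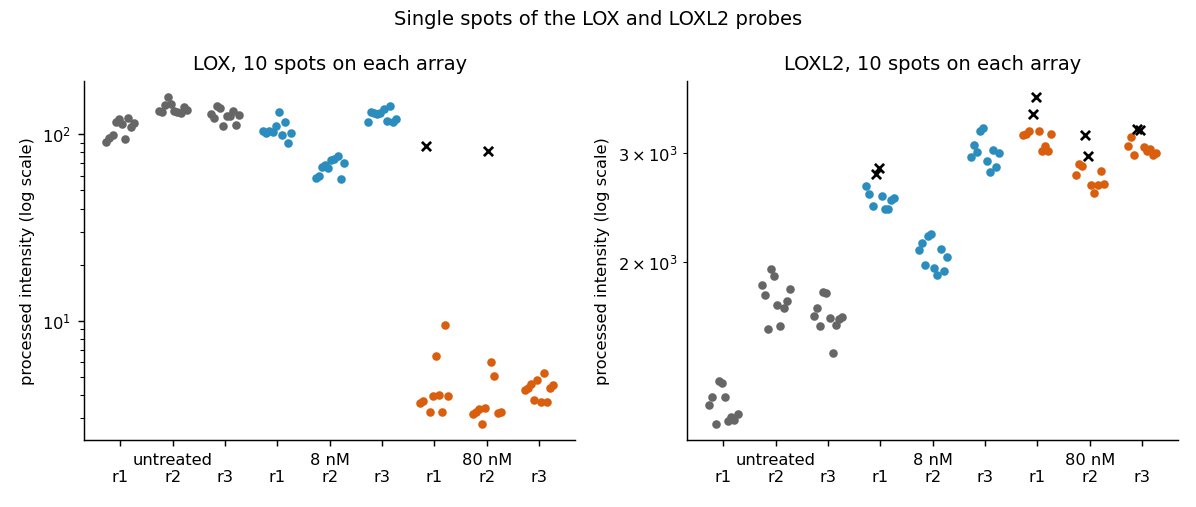
Processed intensity of every spot of the LOX probe (left) and the LOXL2 probe (right) on the 9 arrays, on a log axis, with r1 to r3 for the replicates. Dots are spots used and crosses are spots marked as outliers. LOX spots used at 80 nM read between 2.80 and 9.46, below all spots at 8 nM, and LOXL2 spots rose from 1096 to 1953 in untreated cells to 2591 to 3263 at 80 nM.

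LOXL2, which oxidizes lysines in basement membrane collagen and has also been described in the nucleus, rose with the dose. Its probe for NM_002318 also occupied 10 spots, and it read 1173, 1749 and 1634 on the untreated arrays, 2525, 2057 and 3019 at 8 nM, and 3163, 2738 and 3047 at 80 nM. The mean levels were 0.62 ± 0.10, 1.27 ± 0.12 and 1.67 ± 0.06 (SD, n = 3 each). Every level at a higher dose was above every level at a lower one. The change was 0.66 ± 0.09 (SE) at 8 nM, or 1.58-fold, and 1.06 ± 0.09 (SE) at 80 nM, or 2.08-fold. Between the doses it was 0.40 ± 0.09 (SE), under the 1.5-fold limit. This last step was 0.05 when arrays were scaled to spike-in probes, the setting in which it nearly vanished. Spots marked as outliers were the brightest of their arrays, 2 each in 8 nM replicate 1 and in all 3 arrays at 80 nM, and with them kept the change at 80 nM was 1.09.

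LOXL4, a member with scavenger receptor domains like LOXL2, had the largest rise of the 4 members tested at both doses, apart from normexp correction at 80 nM, where LOXL2 was ahead (0.96 against 0.84). A probe for NM_032211 on 2 spots read 34.9, 46.1 and 38.7 in untreated cells, 131.9, 84.8 and 139.2 at 8 nM, and 122.1, 108.9 and 119.3 at 80 nM. Mean levels were -4.62 ± 0.09, -3.16 ± 0.12 and -3.00 ± 0.05 (SD, n = 3 each). No treated array overlapped an untreated one. The change was 1.46 ± 0.08 (SE) at 8 nM, a 2.75-fold rise, and 1.62 ± 0.08 (SE) at 80 nM, a 3.08-fold rise. Levels at 80 nM were above all levels at 8 nM, by only 0.16 ± 0.08 (SE), and this difference was -0.20 with spike-in scaling. LOXL4 is dim, and the normexp setting gave smaller rises, 0.75 at 8 nM. The authors' log2 values also gave smaller rises, 0.99 at 8 nM and 1.07 at 80 nM.

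LOXL3, a member whose loss is linked to collagen disorders of eye and palate, changed little, and its 2 probes for NM_032603 did not move alike at 80 nM. The bright probe had a mean level of 0.23 ± 0.06 without drug, 0.01 ± 0.19 with 8 nM and -0.004 ± 0.07 with 80 nM (SD, n = 3 each). Its intensities were 980.4, 1328 and 1148 in untreated cells and 933.9, 920.8 and 937.2 at 80 nM, and the 80 nM levels were all below the untreated ones. At 8 nM the levels overlapped with the untreated ones. The changes were -0.21 ± 0.10 (SE) and -0.23 ± 0.10 (SE), both under 1.5-fold. The dim probe, on a single spot, overlapped in every comparison and differed by -0.06 at 8 nM and 0.08 at 80 nM, so the mean of both probes gave -0.08 at 80 nM.

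LOXL1, known for its part in laying down elastic fibres, was not well above background on any of the 9 arrays and did not pass the filter. Its probe for NM_005576 on 2 spots read between 5.19 and 10.6 in untreated cells, 14.9 and 16.5 at 8 nM, and 3.54 and 7.75 at 80 nM. The 8 nM intensities were the highest of the 3 groups, but only 1 of the 6 spots at 8 nM, and 1 of 6 at 80 nM, was well above background. No fold is given, since no group was well above background.

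**Figure D3:**
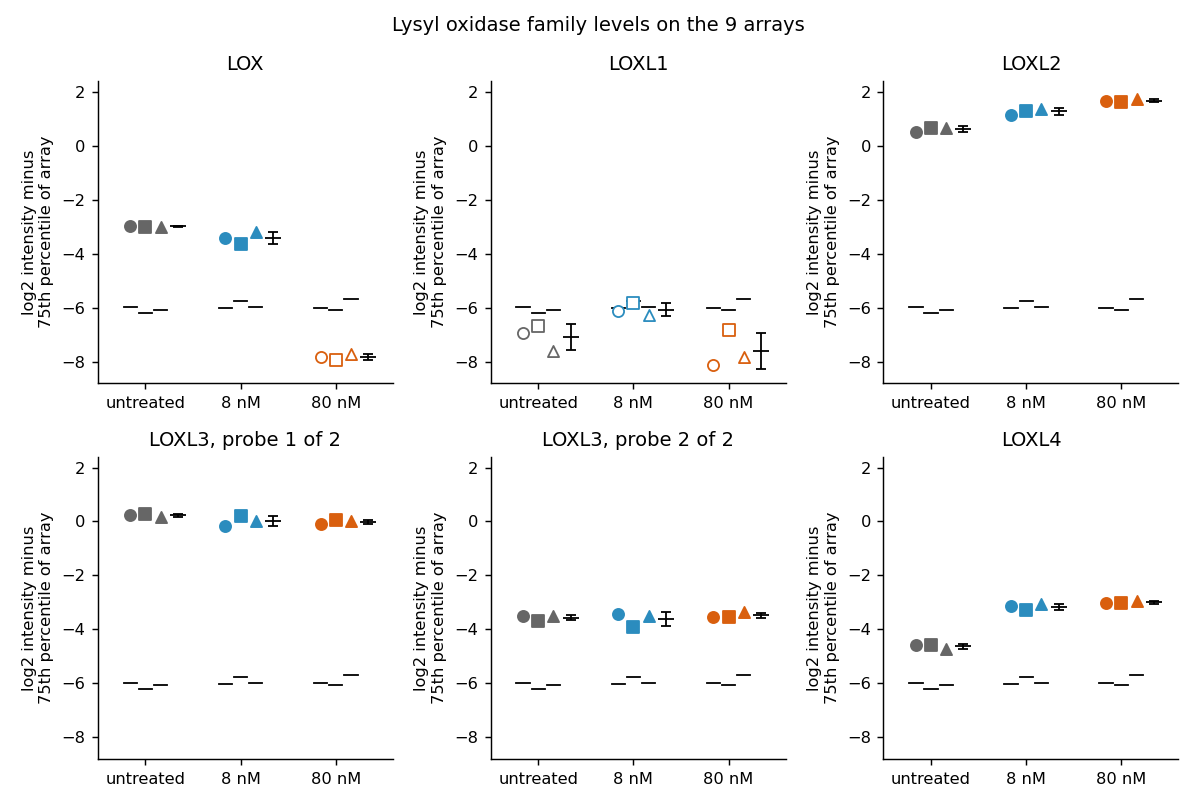
Level of each member probe on each array, as log2 intensity minus the 75th percentile of the array, for untreated, 8 nM and 80 nM cultures (circle, square and triangle for replicates 1, 2 and 3). Open symbols are arrays on which the probe was not well above background, short lines mark the lowest signal well above background, and bars beside the points give mean and SD. LOX falls below the line at 80 nM, LOXL2 and LOXL4 rise at both doses, LOXL3 is level and LOXL1 is never above background.

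By the rule for calls, at least 1.5-fold with an adjusted p under 0.05 over all genes tested, 2 of the 4 members tested were higher at 8 nM (LOXL2 and LOXL4) and 0 were lower, where 3.71% of all genes were called higher and 1.34% lower. At 80 nM against untreated cells, the same 2 were higher and LOX was lower, beside 18.4% and 15.8% of all genes. At 80 nM against 8 nM only LOX was called, as lower, beside 18.9% called higher and 13.7% lower. Nothing is read from these counts, since the family was chosen on these comparisons. The comparisons with untreated cells share their control arrays. With spike-in scaling LOXL2 was no longer called at 8 nM, at 0.73 ± 0.24 (SE).

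**Figure D4:**
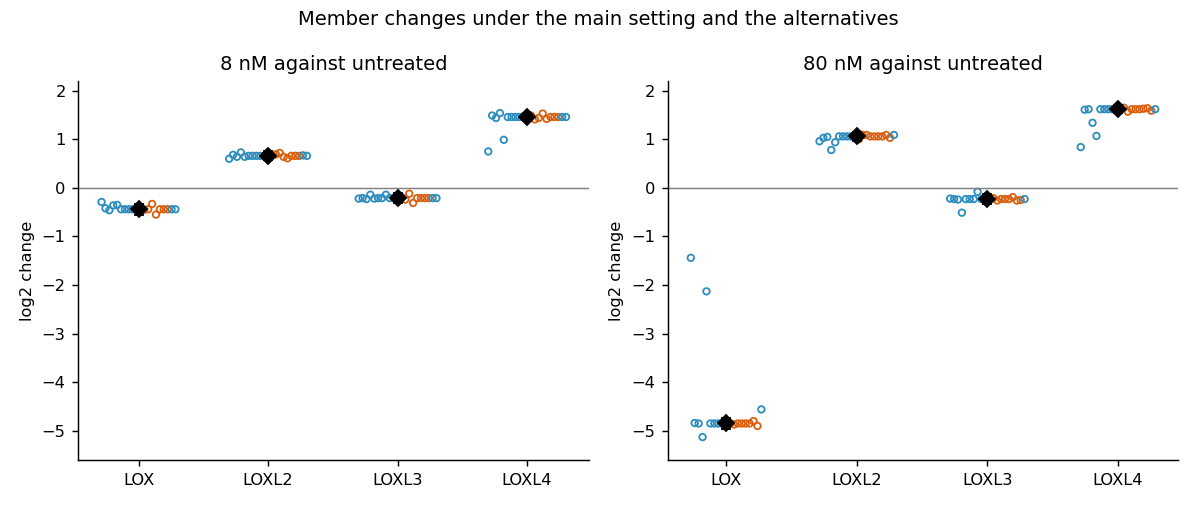
Log2 change of the 4 members tested, at 8 nM (left) and 80 nM (right) against untreated cells. Black diamonds with bars are the main values with their SE, blue circles the other settings and orange circles the fits without 1 array. LOX at 80 nM lies between -5.13 and -1.44, and the signs of LOX, LOXL2, LOXL3 and LOXL4 were the same in every setting.

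Genes that work with the lysyl oxidases, and other amine oxidases, were taken from 7 lists with 112 genes, of which 93 were tested. At 8 nM, 7 of them were called higher and 2 lower, and at 80 nM 29 rose and 19 fell. Between the doses 26 rose and 20 fell. Of all genes, 3.71% were called higher and 1.34% lower at 8 nM, and 18.4% and 15.8% at 80 nM. Between the doses these shares were 18.9% and 13.7%. The counts of each list below stand beside the same shares, and no set test was run. Most genes named from the lists were picked for having the largest changes in these data. The median change of the 93 genes was 0.11 at 8 nM and 0.28 at 80 nM, beside -0.06 and 0.08 over all genes. Scaling to spike-in probes moved the median of all genes at 80 nM from 0.08 to -0.20 and the split of partner genes from 29 higher and 19 lower to 17 higher and 25 lower, so directions at 80 nM are relative to the scaling.

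Among 11 activators tested, proteins that cut, bind or place lysyl oxidases, 1 rose at 8 nM, and 5 rose and 2 fell at 80 nM. THBS1, which encodes thrombospondin 1, rose by 2.58 ± 0.09 (SE) at 80 nM (limma adjusted p = 1.79e-07), with a difference of 1.69 on its other probe. POSTN, the gene of periostin, which brings BMP1 to the matrix, rose by 1.17 ± 0.09 (SE; adjusted p = 1.24e-05). BMP1, the protease that frees active LOX, averaged -2.74 ± 0.17 in untreated cells and -1.99 ± 0.08 at 80 nM (SD, n = 3 each), a rise of 0.75 ± 0.11 (SE; adjusted p = 0.000603), which was 0.47 (adjusted p = 0.142) with spike-in scaling and under 1.5-fold with normexp. FBLN5, a fibulin that tethers LOXL1 to elastic fibres, went both ways. It rose by 1.36 ± 0.20 (SE) at 8 nM (adjusted p = 0.00418) and fell by 1.07 at 80 nM (adjusted p = 0.00208). EFEMP2, the gene of fibulin 4, which binds LOX, fell by 0.62 at 80 nM (adjusted p = 0.00253), a call lost with normexp, with the authors' values and without untreated replicate 1.

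Of 15 substrate genes tested, 3 rose at 8 nM, and 8 rose and 4 fell at 80 nM, with a median change of 0.86 at 80 nM. COL1A1 rose by 0.90 ± 0.11 (SE) at 8 nM (adjusted p = 0.00169) and by 2.31 ± 0.11 (SE) at 80 nM (adjusted p = 9.94e-07). Its adjusted p at 8 nM was 0.0505 when the 80 nM arrays were left out and replicate numbers entered as a block. COL1A2, whose product pairs with that of COL1A1 in type I collagen, was not well above background at 80 nM. On processed intensities it was at least 47-fold lower there than in untreated cells. It is named although it lies outside the rule for naming, and was chosen after its values were seen. COL3A1 rose by 2.08 ± 0.16 (SE) at 80 nM (adjusted p = 1.48e-05), while its call at 8 nM, 0.64 ± 0.16 (SE) with an adjusted p of 0.0332, was lost in 14 alternatives, among them the fits without any 1 untreated array, without 8 nM replicate 1 or 3 and without 80 nM replicate 2 or 3. COL5A1, which helps to start type I fibrils, rose at both doses, by 0.68 at 8 nM and by 1.17 at 80 nM, and its call at 8 nM was lost with normexp, spike-in scaling and the authors' values. MFAP5, a microfibril protein, rose by 2.10 ± 0.16 (SE) at 80 nM (adjusted p = 1.47e-05). FBN2, the gene of fibrillin 2, fell by 4.29 (SE 0.07, adjusted p = 5.50e-09). EMILIN1 fell by 0.84 (adjusted p = 0.0336), and this call was lost without any 1 untreated array, without 80 nM replicate 1 or 3, without the filter and with the replicate block.

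Collagen maturation genes, 18 tested, held no call at 8 nM, and 6 rose and 1 fell at 80 nM. CRTAP rose by 1.39 ± 0.13 (SE; adjusted p = 5.42e-05) and P3H1, its partner in prolyl hydroxylation, by 0.96 ± 0.12 (SE; adjusted p = 0.000281). PLOD2, which makes the hydroxylysines that steer cross-link type, changed by 0.38 ± 0.11 (SE) at 80 nM, under 1.5-fold. COLGALT1 rose by 0.64 ± 0.06 (SE; adjusted p = 7.18e-05) by its brighter probe, while its other probe differed by -0.12 and spike-in scaling gave 0.36 (adjusted p = 0.226).

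Copper supply genes, 18 tested, were represented by 1 fall at 8 nM, and by 4 rises and 1 fall at 80 nM. The metallothionein gene MT1F was 2.84 ± 0.31 (SE) higher at 80 nM than in untreated cells (adjusted p = 0.000106). It was not well above background at 8 nM, and was at least 2.47-fold lower than in untreated cells there. Its call at 8 nM, which rests on readings near background, was lost with normexp. That setting gave -0.55 (adjusted p = 0.0548), less than the bound. Whether its probe also takes up RNA of closely related metallothionein genes was not tested. MT1X rose by 0.81 ± 0.11 (SE) at 80 nM (adjusted p = 0.000312), a rise that was 0.53 with spike-in scaling. STEAP2, a metalloreductase, rose by 2.61 ± 0.07 (SE; adjusted p = 4.87e-08), with a difference of 0.37 on its other probe. ATP7A, the pump that loads copper into secreted enzymes, has 4 probes that disagreed. The brightest fell by 1.30 at 80 nM (adjusted p = 0.000475), the others differed by 1.06, 0.04 and -0.05, and the mean of the probes changed by -0.06 (adjusted p = 0.543).

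Among 5 other amine oxidases tested, 0 were called at 8 nM and 1 rose and 3 fell at 80 nM. AOC3, a copper amine oxidase, rose by 1.32 ± 0.07 (SE; adjusted p = 1.49e-06). MAOA, a mitochondrial flavin enzyme, fell by 1.12 (adjusted p = 2.13e-05), and by under 1.5-fold with normexp and with the authors' values. PAOX fell by 0.87 (adjusted p = 0.000258), although 1 of its 3 probes differed by only -0.02 and the mean of the probes changed by -0.51, under 1.5-fold.

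Of 12 genes of mesenchymal transition linked to LOX and LOXL2, 1 rose and 1 fell at 8 nM, and 1 rose and 4 fell at 80 nM. SNAI2, a repressor of epithelial genes, rose by 1.80 ± 0.16 (SE) at 80 nM (adjusted p = 3.59e-05). CDH2, which encodes N-cadherin, fell by 2.33 (adjusted p = 5.21e-06), and OCLN, a tight junction gene, fell by 1.64 (adjusted p = 2.47e-06), with a difference of -2.81 on its other probe.

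Regulators of lysyl oxidase genes numbered 14 tested, with 2 higher at 8 nM, and 4 higher and 4 lower at 80 nM. HIF1A, which drives LOX and LOXL2 in hypoxia, fell by 0.65 at 80 nM (adjusted p = 0.000239), and its relative EPAS1 rose by 2.70 ± 0.11 (SE; adjusted p = 4.78e-07). SP1, the factor that binds GC boxes, differed by -0.16 ± 0.12 (SE; adjusted p = 0.277) at 80 nM and did not pass the test. TGFB1 and TGFB3, ligands known to raise LOX, rose by 0.66 and 0.82 at 80 nM, changes that were 0.38 and 0.54 with spike-in scaling. MYC fell by 1.11 (adjusted p = 5.05e-06), as did IRF1, by 1.81 (adjusted p = 0.00270). CCN2, a matricellular gene, rose by 1.70 ± 0.17 (SE) at 8 nM (adjusted p = 0.000674). At 80 nM it was not well above background, and on processed intensities at least 2.16-fold lower than in untreated cells. SMAD3 rose by 0.78 ± 0.08 (SE) at 8 nM (adjusted p = 0.000664), a call lost with spike-in scaling (adjusted p = 0.107).

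**Figure D5:**
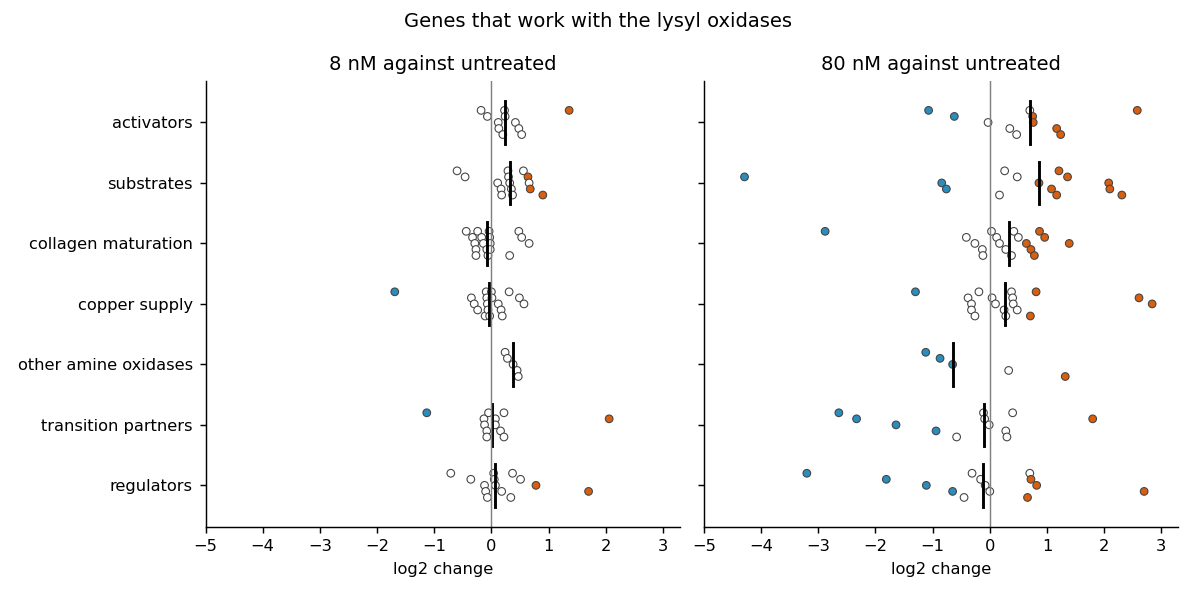
Log2 change of the tested genes of the 7 partner lists at 8 nM (left) and 80 nM (right) against untreated cells. COL1A2 at 80 nM lies beyond the lower end of the axis and is not drawn. Orange points were called higher, blue points lower and white points neither, and black lines are list medians. The substrates have the highest median at 80 nM, 0.86, and the other amine oxidases the lowest, -0.65.

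Markers of other cell types were read beside these matrix genes. The fibroblast list had 6 of 9 markers well above background on every untreated array and 4 of 9 on every 80 nM array. Its summed level ran from 14.5 to 15.1 times the 75th percentile in untreated cells, from 15.6 to 18.2 at 8 nM and from 14.6 to 15.9 at 80 nM. Such sums add intensities of different probes, so the brightest probes weigh most. In the fibroblast list this was THY1, with a mean level of 3.18 in untreated cells and 3.36 at 80 nM. Of the 6 fibroblast markers tested, 1 was called higher and 3 lower at 80 nM against untreated cells. S100A4 rose by 0.97, DCN fell by 1.39, and PDGFRA fell by 6.50 and was well above background on 2 of 3 arrays at 80 nM. COL6A3 was not well above background at 80 nM and on processed intensities was at least 33.4-fold lower there. PDGFRB and THY1 differed by 0.00 and 0.18 and did not pass the test. The summed level of the leukocyte list, 7 genes on the array, ran from 0.228 to 0.285 in untreated cells, from 0.217 to 0.236 at 8 nM and from 0.326 to 0.379 at 80 nM, so the 80 nM sums were above all others. Of its 4 genes tested, CD68 was called higher at 80 nM, by 1.25 (adjusted p = 6.24e-06), whereas PTPRC differed by -0.20, and CD3E and CSF1R did not pass the filter. The endothelial list, 6 genes, summed to between 0.137 and 0.144 in untreated cells, 0.118 and 0.136 at 8 nM, and 0.155 and 0.181 at 80 nM, again highest at 80 nM, with CDH5 as its only gene past the filter and not called. These marker genes are outside the rule for naming and were named after their values were seen. All samples come from a single cell line, and the part of other cell types in the member changes was not tested.

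The genes whose levels tracked each member most closely over the 9 arrays were ranked among at least 12704 genes well above background throughout. For LOX, whose values at 80 nM were not well above background and so fix no exact r or rank, these were PRKCH, HAPLN1 and FGF18. For LOXL2 they were C5 (r = 0.996), SPG11 (r = 0.996) and C1S (r = 0.995), and for LOXL4 they were PROCR, ADHFE1 and FAS (r from 0.993 to 0.994). LOXL3 came closest to KIF24, LIN28B and SLC16A1 (r from 0.956 to 0.960). The 9 points fall in 3 groups and on 2 slides, so these values mostly compare group means.

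The nearest tested protein-coding genes on either side of each member in the RefSeq order were read as well. Beside LOX, SRFBP1 changed by 0.49 and SNX2 by 0.15 at 80 nM, neither called against untreated cells. Beside LOXL2, R3HCC1 changed by 0.08 and ENTPD4 by -0.44, and beside LOXL3, HTRA2 by -0.07 and DOK1 by -0.02, with 0 of these 4 called. Next to LOXL4, R3HCC1L fell by 0.63 (adjusted p = 0.000285) and PYROXD2 rose by 1.05 (adjusted p = 0.00217) at 80 nM, whereas neither was called at 8 nM. Next to LOXL1, INSYN1 rose by 0.90 (adjusted p = 0.000740) and STOML1 changed by -0.43.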

How the data were processed

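RNA of 9 cultures was hybridized to one-color arrays and scanned by the authors with Agilent Feature Extraction 10.7.3.1. The deposited scanner files hold processed intensity, corrected for background by the authors and not scaled between arrays. A log2 table deposited by the authors served as an alternative and tracked the log2 of the median signal (r from 0.999 to 1.000). A lowess step named in the methods has no second channel here and was not applied. The methods and the labels name different labeling kits.

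Log2 intensities of the spots of a probe, without outlier spots, were averaged and the 75th percentile of the array was subtracted. Of 42405 gene probes, 26458 passed on all 3 arrays of a group, an array counting as well above background where more than 0.5 of its spots were. A RefSeq gene table named 25715 of the 27245 probes that carry a RefSeq accession. The brightest probe of a gene that passed the filter stood for it. Features without a gene symbol were kept under their own accession and count among all genes tested. Bounds replace folds where a group was not well above background. They hold for processed intensities only, and estimates for LOX and MT1F in other settings fell short of them.

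The fit used limma 3.58.1 under R 4.3.3 (empirical Bayes) on all 9 arrays, and Benjamini-Hochberg adjustment ran over 21833 genes. A call needed 1.5-fold and an adjusted p under 0.05, whereas the methods use the unadjusted p, an alternative here. The procedure was checked on simulated data. Tables and plots were made in Python 3.11.15. With 3 arrays in a group, their number limits the precision.

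Members, lists and tests were chosen with earlier results of these data known. The genes named are all members, the 3 genes most like each member, and its neighbours. In each list and comparison, up to 2 called genes in each direction were named. These had the largest changes among the genes well above background in both groups. They were thus picked as extremes of these same data and do not stand for their lists. Another 7 genes were named whatever their change (BMP1, COL1A1, ATP7A, PLOD2, HIF1A, SP1 and SNAI2). COL1A2 and the genes of the marker lists were named outside this rule. Same-numbered deviations correlated weakly between the untreated and 8 nM arrays, at 0.119, 0.109 and 0.165, and from -0.113 to 0.017 with the 80 nM arrays. By these correlations each untreated array matched the 8 nM array of its own number best. The best match among the 80 nM arrays never shared the number. Whether replicate numbers mark a pairing was not tested, and the main fit did not use them. Alternatives were normexp with an offset of 50, quantile, median, spike-in (10 probes) and the authors' log2 scaling, a filter on all 9 arrays or none, averaged probes of a gene, the unadjusted p, fewer groups, a replicate block and leaving out each array. Kept outlier spots and a block with only untreated and 8 nM arrays were added after seeing the data.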

Additional observations from a re-analysis of the deposited data

How the results depend on the processing

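Results were recomputed under each alternative. With normexp background correction, genes called numbered 610 at 8 nM, 4680 at 80 nM and 4240 between the doses, against 1102, 7458 and 7130, and partner genes called at 8 nM numbered 5 against 9. Scaling to spike-in probes gave 371 genes and 5 partner genes at 8 nM, and moved the split at 80 nM from 4013 higher and 3445 lower to 1798 and 4949, and between the doses from 4131 and 2999 to 1294 and 5058. At 8 nM it moved from 809 and 293 to 345 and 26. The unadjusted p gave 928 higher and 596 lower at 8 nM. A filter on all 9 arrays left 5 partner genes called at 8 nM, among 83 tested. Leaving out each array gave 954 to 1358 genes at 8 nM, 7013 to 7639 at 80 nM and 6850 to 7229 between the doses, and 7 to 10, 46 to 48 and 44 to 46 partner genes; without 8 nM replicate 1, 841 were higher and 517 lower at 8 nM. With the replicate block, 1046, 7376 and 7044 genes and 8, 47 and 46 partner genes were called, and 757 genes and 8 partner genes at 8 nM when only the untreated and 8 nM arrays were fitted. The block ended the calls of COL3A1 at 8 nM (adjusted p = 0.0739) and EMILIN1 at 80 nM (adjusted p = 0.0600). No called member change turned its sign. The 34 partner genes named by the rule kept their side of the threshold in 2114 comparisons with an alternative, lost a call in 47 and gained one in 9. The cause of these shifts was not tested. Signal over background limits LOX at 80 nM to a bound and LOXL1 to no value.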
